A study of Mus musculus with 28 samples.

Results

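Expression of 31 genes of the lysosome was measured in microglia and astrocytes sorted from mouse brain. The genes were taken by symbol from the mouse rows of a gene count table, 31 of 40481 mouse genes, and all 31 were found. They comprise 12 soluble hydrolases, 3 lumenal activator and carrier proteins, 8 membrane proteins, 7 proton pump genes and the transcription factor Tfeb. Cathepsins were not included.

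Lysosomes are acidic organelles in which soluble enzymes break down lipids, glycans and proteins delivered by endocytosis, phagocytosis and autophagy. Membrane glycoproteins line the organelle, and a vacuolar ATPase, made of a membrane sector named V0 and a cytosolic sector named V1, pumps protons into it. The transcription factor TFEB drives many lysosomal genes through a short palindromic promoter motif, and microglia, the phagocytes of the brain, take up amyloid into this compartment.

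All mice, controls included, carried floxed human APOE4 (APOE4fl/fl), and all received 2 intraperitoneal doses of tamoxifen at 100 mg per kg at 3.8 months of age, with cells collected 10 days later from cortex, hippocampus and thalamus. The groups were APPPS1::APOE4fl/fl, APPPS1::APOE4fl/fl::ALDH1L1-CreERT, APOE4fl/fl and APOE4fl/fl::ALDH1L1-CreERT, called here by whether they carry amyloid (APPPS1 or amyloid-free) and Cre (Cre-negative or Cre-positive). The APPPS1 transgenes are expressed in neurons and lead to extracellular amyloid plaques, and the tamoxifen-dependent Cre is expressed from the astrocyte promoter of Aldh1l1. Per the labels, there were 5, 5, 2 and 2 mice, each giving a CD11b-sorted microglia library and an ACSA-2-sorted astrocyte library, 28 libraries of 14 mice; the design text gives 4 mice for each APPPS1 group. Each group thus has at most 5 animals, and the amyloid-free groups have 2 each.

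Both libraries of mouse 459, labelled APPPS1 Cre-positive, held the genes of the other sort. Laptm5, a lysosomal membrane protein of blood-lineage cells, stood at 11.4 CPM in its library labelled microglia and at 4426 CPM in its library labelled astrocyte, where CPM is the gene count scaled to the library's total of mouse gene counts. All values below leave out this mouse, so that 26 libraries of 13 mice remain. Their total counts ran from 26162612 to 59238523. Human APOE, the floxed gene, was at 1273 to 1864 CPM in the 5 APPPS1 Cre-negative astrocyte libraries and at 507 to 827 CPM in the 4 Cre-positive ones. In amyloid-free astrocytes it was at 1411 and 1052 CPM in Cre-negative mice 465 and 759. The Cre-positive mice 22 and 26 had 521 and 926 CPM. The 15 microglia markers summed to 21696 CPM in the microglia library of mouse 26, amyloid-free Cre-positive, and to at least 40816 CPM in the other 12 microglia libraries. They summed to 57.8 to 117 CPM in the astrocyte libraries. Human rows for the 31 symbols held at most 0.0834% of the mouse counts of the same gene.

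The promoters are shown first, as they were searched for the short palindromic motif named above. Most of the genes with a promoter window did not hold it. RefSeq promoter windows (GRCm38.p6), each from 250 bases before to 50 bases after a start site, were found for 26 of the 31 genes. Asah1, Atp6v0d2, Atp6v1b2, Atp6v1c1 and Npc1 have none. The 6 letters CACGTG, which read the same on both strands, were in 9 of the 30 windows of these 26 genes, 1 window each in 9 genes, against 7.15% of all 32851 windows. The longer TCACGTG or its reverse complement CACGTGA, which contains the first motif, was in 9 of the 30 windows, of the same 9 genes, and in 3.77% of all windows. The full palindrome TCACGTGA was in 5 of the 30 windows, those of Atp6v0d1, Atp6v1a, Cln3, Gla and Mcoln1, against 0.974% of all windows. The last 150 bases before the start site, with every such match in capitals, are given for 2 hydrolase genes that rose with amyloid and hold the motif, for Hexa, which rose and holds none, and for Lamp1, which holds 4 matches and did not pass.
Glb1, chr9:114400928-114401077, plus strand: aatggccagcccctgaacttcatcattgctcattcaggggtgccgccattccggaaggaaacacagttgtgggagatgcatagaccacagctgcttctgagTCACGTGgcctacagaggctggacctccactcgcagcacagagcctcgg
Naglu, chr11:101069944-101070093, plus strand: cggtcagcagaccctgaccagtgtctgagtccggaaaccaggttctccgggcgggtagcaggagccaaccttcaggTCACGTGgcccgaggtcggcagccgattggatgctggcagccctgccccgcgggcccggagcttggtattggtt
Hexa, chr9:59539390-59539539, plus strand: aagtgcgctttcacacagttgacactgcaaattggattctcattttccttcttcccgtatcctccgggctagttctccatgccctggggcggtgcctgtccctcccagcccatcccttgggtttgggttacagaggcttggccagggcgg
Lamp1, chr8:13159011-13159160, plus strand: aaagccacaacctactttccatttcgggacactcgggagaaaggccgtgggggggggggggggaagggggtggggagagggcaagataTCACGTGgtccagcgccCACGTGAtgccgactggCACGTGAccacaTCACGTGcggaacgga

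Of the 17 genes that rose with amyloid in microglia (below), 15 have a window and 4 hold the motif (Gaa, Glb1, Naglu and Atp6v1a). Of the 14 that did not pass, 11 have a window and 5 hold it (Gla, Lamp1, Mcoln1, Cln3 and Atp6v0d1). A match is a description of these letters and not of a factor bound there.

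Microglia carried more lysosomal transcript than astrocytes. Of the 31 genes, 25 were higher in microglia and 5 lower, against 35.4% of all 21612 genes tested higher and 41.1% lower. Lamp1, Atp6v0a1, Atp6v1a and Tfeb were among the 25, but their mean TPM, defined below, was lower in microglia. The median log2 difference was 1.22 over the 31 genes and -0.18 over all genes. Adjusted p-values come from edgeR's quasi-likelihood test with Benjamini-Hochberg adjustment over all genes tested, a gene passes below 0.05, and ± after a log2 value is the standard error. Together the 31 genes took from 1.21% to 2.56% of the mouse counts in microglia and from 0.515% to 0.564% in astrocytes, and no astrocyte library reached the lowest microglia library.

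Man2b1, which trims mannose from glycans, had the lowest p. It was higher in microglia by 5.36 ± 0.16 on the log2 scale (adjusted p = 7.3e-18). Grn, which encodes progranulin, the precursor of the granulins, followed at 4.87 ± 0.16. Hexa, which takes part in ganglioside breakdown, differed by 3.75 ± 0.16 and Gusb, beta-glucuronidase, by 3.64 ± 0.17. Npc2, the lumenal carrier that hands cholesterol to the membrane protein Npc1, differed by 2.71 ± 0.13. Ppt1, which removes palmitate from proteins, differed by 1.73 ± 0.10 and Asah1, acid ceramidase, by 1.80 ± 0.10. The 5 genes lower in microglia were Smpd1, acid sphingomyelinase (-2.15 ± 0.09), Tmem106b, a membrane protein that affects lysosome size (-1.14 ± 0.09), Gaa, the glycogen-degrading glucosidase (-0.57 ± 0.14), Npc1 (-0.54 ± 0.09) and Mcoln1, a cation channel (-0.39 ± 0.16). Atp6v0d1, the widely expressed d subunit of the V0 sector, was at -0.10 ± 0.09 and did not pass.

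Levels between genes were compared as TPM, that is per exon length, as means over the 13 libraries of a sort. In microglia Laptm5 was highest at 2957 ± 392 TPM (SD, n = 13). Hexa (1825 ± 746 TPM), Psap, the precursor of the saposins that activate sphingolipid hydrolases (1716 ± 323 TPM), and Grn (1610 ± 505 TPM) followed, and these ranges overlapped. This order mixes the groups: in the 9 APPPS1 libraries Hexa was at 2213 ± 499, Grn at 1858 ± 332 and Psap at 1810 ± 338 TPM, and in the 4 amyloid-free libraries Psap was at 1505 ± 165, Grn at 1051 ± 351 and Hexa at 953 ± 313 TPM (SD). Npc2 came next at 717 ± 227 TPM, beside Asah1 at 708 ± 109 TPM. Mcoln1, at 6.86 ± 2.45 TPM, and Tfeb, at 7.80 ± 1.60 TPM, were near the bottom of the order. Atp6v0d2 depended on the group, with 0.0987 to 10.4 TPM in APPPS1 and at most 0.0447 TPM in amyloid-free libraries.

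In astrocytes Psap led at 1060 ± 110 TPM, and its lowest library, at 926 TPM, stood above every other gene. Atp6ap1, an accessory subunit of the pump (345 ± 38.1 TPM), Asah1 (333 ± 53.7 TPM) and Tpp1, a peptidase that removes tripeptides (301 ± 23.5 TPM), overlapped. Smpd1 ranked 7 in astrocytes with 233 ± 25.2 TPM and 24 in microglia with 32.3 ± 6.68 TPM. Some genes that passed as higher in microglia had a lower mean TPM there, with overlapping ranges. These were Lamp1 (252.5 TPM in microglia against 279.3 in astrocytes), Atp6v0a1 (56.9 against 72.4), Atp6v1a (56.5 against 70.5) and Tfeb (7.80 against 10.4). The test scales libraries differently, so the direction for these genes depends on the scaling. Laptm5 ranked 30 in astrocytes, with a median of 2.06 TPM. In the astrocyte library of mouse 774 it reached 31.4 TPM, and monocyte and neutrophil markers summed to 382 CPM there against at most 14.3 CPM in the other 12 astrocyte libraries; their part in that value was not tested.

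**Figure D1:**
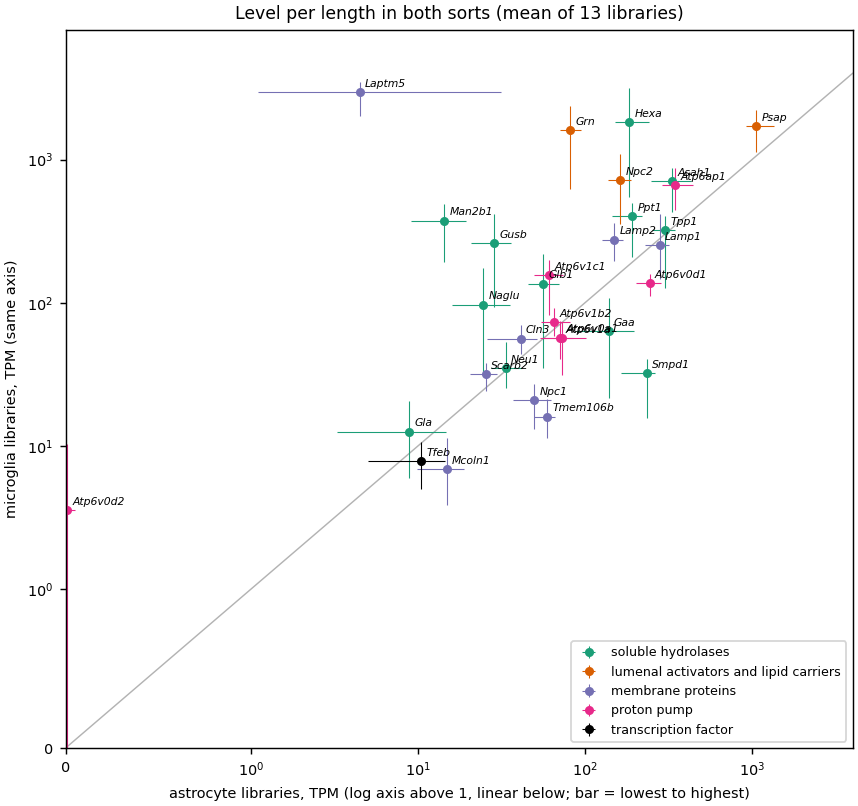
Mean TPM of each gene over 13 microglia libraries (vertical) and 13 astrocyte libraries (horizontal), with bars from the lowest to the highest library and colours for the role groups; axes are logarithmic above 1 and linear below. Laptm5, Man2b1, Grn and Hexa lie far above the line of equality, and Smpd1 and Tmem106b lie below it. Lamp1, Atp6v0a1, Atp6v1a and Tfeb also lie below the line, although they passed as higher in microglia.

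Many of these genes were higher in microglia of APPPS1 mice, which carry amyloid. With the effect averaged over both Cre states, 17 of the 31 genes rose and none fell, against 6.06% of all 17593 genes tested rising and 3.52% falling. The median log2 change was 0.55 over the 31 genes and -0.05 over all genes. By role, 9 of 12 soluble hydrolases, 2 of 3 lumenal proteins, 2 of 8 membrane proteins and 4 of 7 pump genes passed, and Tfeb did not. For 8 of the 31 genes every APPPS1 library lay above every amyloid-free library, against 2.67% of 12503 genes with a mean of at least 1 CPM. No gene of the 31 showed the opposite order, against 2.63%. A lower count in a sorted population can come from fewer cells of a type or from less RNA per cell, which these bulk libraries cannot tell apart.

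The summed share of counts moved with these calls. In microglia the 31 genes took 1.21% to 1.74% of the mouse counts in the 4 amyloid-free libraries and 1.86% to 2.56% in the 9 APPPS1 libraries, without overlap. The hydrolases took 0.273% to 0.529% and 0.527% to 0.840% respectively, and these ranges touched. The 3 lumenal proteins did not overlap, at 0.341% to 0.425% and 0.554% to 0.781%. In astrocytes the total was 0.515% to 0.564% in amyloid-free and 0.518% to 0.560% in APPPS1 libraries.

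**Figure D2:**
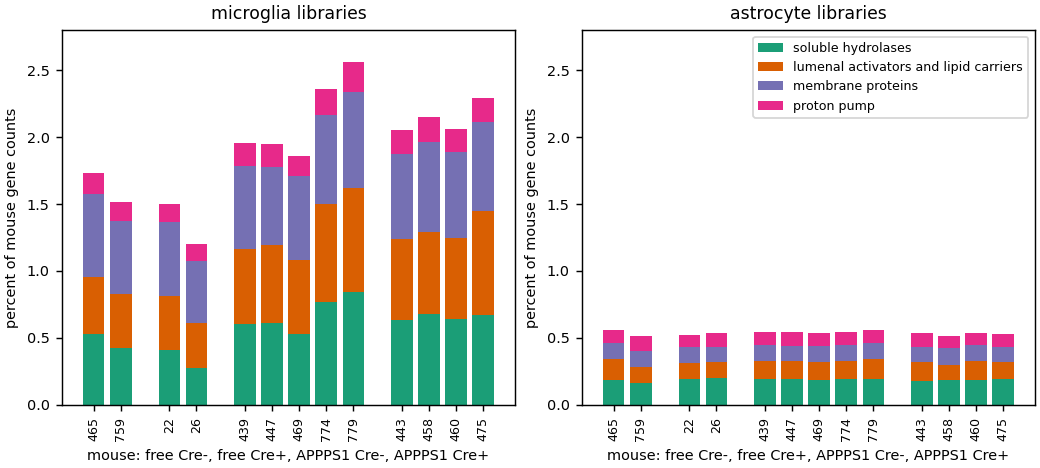
Percent of mouse gene counts taken by the soluble hydrolases, lumenal proteins, membrane proteins and proton pump genes in each library, stacked, with mice ordered by group. All 9 APPPS1 microglia libraries exceed the 4 amyloid-free ones, while the 13 astrocyte libraries stay between 0.515% and 0.564%.

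Among the soluble hydrolases, Glb1, beta-galactosidase, had the lowest p. The gene lies at chr9:114401076-114474898 (GRCm38), and Hexa, described next, at chr9:59539540-59565109. It stood at 115 and 76.8 CPM in amyloid-free Cre-negative microglia and at 67.9 and 43.8 CPM in the amyloid-free Cre-positive group. In APPPS1 Cre-negative microglia it was at 117, 179, 181, 256 and 275 CPM, and in APPPS1 Cre-positive microglia at 179, 179, 216 and 242 CPM. The groups did not overlap, although the lowest APPPS1 library, of mouse 469, lay just above the highest amyloid-free one. The change was 1.62 ± 0.25 on the log2 scale, or 3.08-fold (adjusted p = 0.00282). Of the exon bases of Glb1, 5.5% are shared with Tmppe on the same strand.

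Hexa was at 965 and 767 CPM in amyloid-free Cre-negative and at 731 and 457 CPM in the amyloid-free Cre-positive group. APPPS1 Cre-negative microglia held 1197, 1564, 1770, 2285 and 2638 CPM, and Cre-positive ones 1534, 1628, 1642 and 1854 CPM. Every APPPS1 value was higher, and the log2 change was 1.46 ± 0.23 (adjusted p = 0.00294). Of the exon bases of Hexa, 12.8% are shared with Tmem202 on the opposite strand, and whether counting used strand was not stated. Gusb, which cleaves glucuronic acid from glycosaminoglycans, stood at 285 and 218 CPM, then 238 and 178 CPM, in the amyloid-free groups in the same order. It was at 342, 465, 519, 750 and 795 CPM in APPPS1 Cre-negative and at 478, 579, 657 and 703 CPM in APPPS1 Cre-positive microglia. Again no value overlapped, with a log2 change of 1.52 ± 0.24 (adjusted p = 0.00302).

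The other hydrolases that rose were Naglu, which degrades heparan sulfate (1.23 ± 0.26), Gaa (1.0 ± 0.22), Ppt1 (0.69 ± 0.15), Man2b1 (0.67 ± 0.18), Tpp1 (0.60 ± 0.18, adjusted p = 0.0492) and Smpd1 (0.51 ± 0.14). Naglu overlapped between the groups. It was at 51.2, 83.7, 63.6 and 35.2 CPM in the 4 amyloid-free libraries and at 82.3 to 184 CPM in the 9 APPPS1 libraries, with a median of 111 CPM. Gla, alpha-galactosidase A, was at 0.84 ± 0.31 (adjusted p = 0.102) and Asah1 at 0.33 ± 0.12 (adjusted p = 0.105), and neither passed. Neu1, the lysosomal sialidase, was the hydrolase with a negative value, at -0.12 ± 0.13 (adjusted p = 0.606).

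Of the lumenal proteins, Npc2 and Grn rose. Npc2 was at 1018 and 987 CPM in amyloid-free Cre-negative and at 926 and 809 CPM in the amyloid-free Cre-positive group. It was at 1149, 1636, 1863, 2042 and 2505 CPM in APPPS1 Cre-negative and at 1692, 1757, 1874 and 2107 CPM in APPPS1 Cre-positive microglia, all above the amyloid-free values. The log2 change was 1.14 ± 0.20 (adjusted p = 0.00503).

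Grn was at 1904 and 1415 CPM, then 1372 and 911 CPM, in the amyloid-free groups. APPPS1 Cre-negative microglia had 2115, 2117, 2751, 2980 and 3453 CPM, and Cre-positive ones 2172, 2334, 2363 and 3232 CPM. The groups did not overlap, and the log2 change was 1.07 ± 0.20 (adjusted p = 0.00808). Psap, at 0.47 ± 0.15, did not pass (adjusted p = 0.0609), and its lowest value of all, 1257 CPM, was in an APPPS1 library, of mouse 439.

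Most membrane proteins did not pass. Lamp2, a major glycoprotein of the lysosomal membrane with a role in autophagy, rose by 0.61 ± 0.15 (adjusted p = 0.0224). It was at 868 and 862 CPM, then 850 and 780 CPM, in the amyloid-free groups, and at 872, 922, 1115, 1185 and 1330 CPM and 1090, 1164, 1290 and 1409 CPM in the APPPS1 groups. The groups did not overlap, although the library of mouse 469 lay just above the amyloid-free values. Scarb2, a membrane receptor that takes part in enzyme transport to lysosomes, rose by 0.55 ± 0.13 (adjusted p = 0.023). It was at 66.4, 72.1, 58.9 and 63.5 CPM in the amyloid-free libraries and at 64.8 to 96.9 CPM in the APPPS1 libraries, with a median of 88.5 CPM, so that the groups overlapped.

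Lamp1, the partner glycoprotein of Lamp2, was at 0.34 ± 0.19 (adjusted p = 0.269), and 9.3% of its exon bases are shared with Grtp1 on the opposite strand. It stood at 144 and 254 CPM, then 264 and 337 CPM, in the amyloid-free groups and at 208 to 457 CPM in the APPPS1 libraries, with a median of 254 CPM, and the groups overlapped widely. Laptm5 (0.36 ± 0.13, adjusted p = 0.0941), Mcoln1 (0.31 ± 0.26), Cln3, a membrane protein mutated in a juvenile storage disease (0.30 ± 0.15), Npc1 (0.25 ± 0.16) and Tmem106b (0.23 ± 0.14) did not pass either, although all 8 membrane proteins had positive values.

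In the proton pump, Atp6v0d2 stood apart. It encodes the d2 form of the V0 sector subunit, known from osteoclasts and macrophages. In amyloid-free microglia it had 5 counts over 4 libraries, at 0.0425, 0.0470, 0 and 0.0383 CPM. APPPS1 Cre-negative microglia had 3.22, 7.95, 0.100, 11.1 and 10.0 CPM, and Cre-positive ones 4.36, 4.32, 4.36 and 5.70 CPM. All APPPS1 libraries were higher, but that of mouse 469, at 0.100 CPM, lay close to the amyloid-free level. The gene rose (adjusted p = 0.00227). The ratio of pooled CPM was 175, with a 95% interval for counting error alone of 75 to 540, and the fitted log2 change of 7.63 ± 1.13 depends on the prior count. In astrocytes it had 4 counts over the 13 libraries in all and was too low to test.

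The other pump genes moved less. Atp6v1a, the catalytic A subunit of the V1 sector, was at 103 and 94.2 CPM, then 107 and 126 CPM, in the amyloid-free groups. It stood at 126, 138, 139, 178 and 179 CPM and at 135, 143, 154 and 157 CPM in the APPPS1 groups, which did not overlap with the amyloid-free values before rounding (125.6 and 125.7 CPM at the nearest pair). It rose by 0.63 ± 0.14 (adjusted p = 0.0149). Atp6v1c1, the C subunit of V1, rose by 0.73 ± 0.17 (adjusted p = 0.0185), with 269, 299, 281 and 193 CPM in the amyloid-free libraries and 284 to 451 CPM, with a median of 404 CPM, in the APPPS1 libraries. Atp6ap1 rose by 0.51 ± 0.15 (adjusted p = 0.0467). Atp6v0d1 (0.34 ± 0.14), Atp6v0a1 of the V0 sector (0.34 ± 0.15) and Atp6v1b2, the B2 subunit of V1 (0.33 ± 0.16), did not pass.

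Tfeb did not follow the enzymes. It stood at 17.9 and 18.1 CPM in amyloid-free Cre-negative and at 22.8 and 22.8 CPM in the amyloid-free Cre-positive group. In APPPS1 Cre-negative microglia it was at 14.6, 15.2, 17.2, 17.6 and 21.2 CPM and in Cre-positive ones at 11.2, 15.3, 17.4 and 17.5 CPM. The groups overlapped, and the log2 change was -0.18 ± 0.13 (adjusted p = 0.4).

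**Figure D3:**
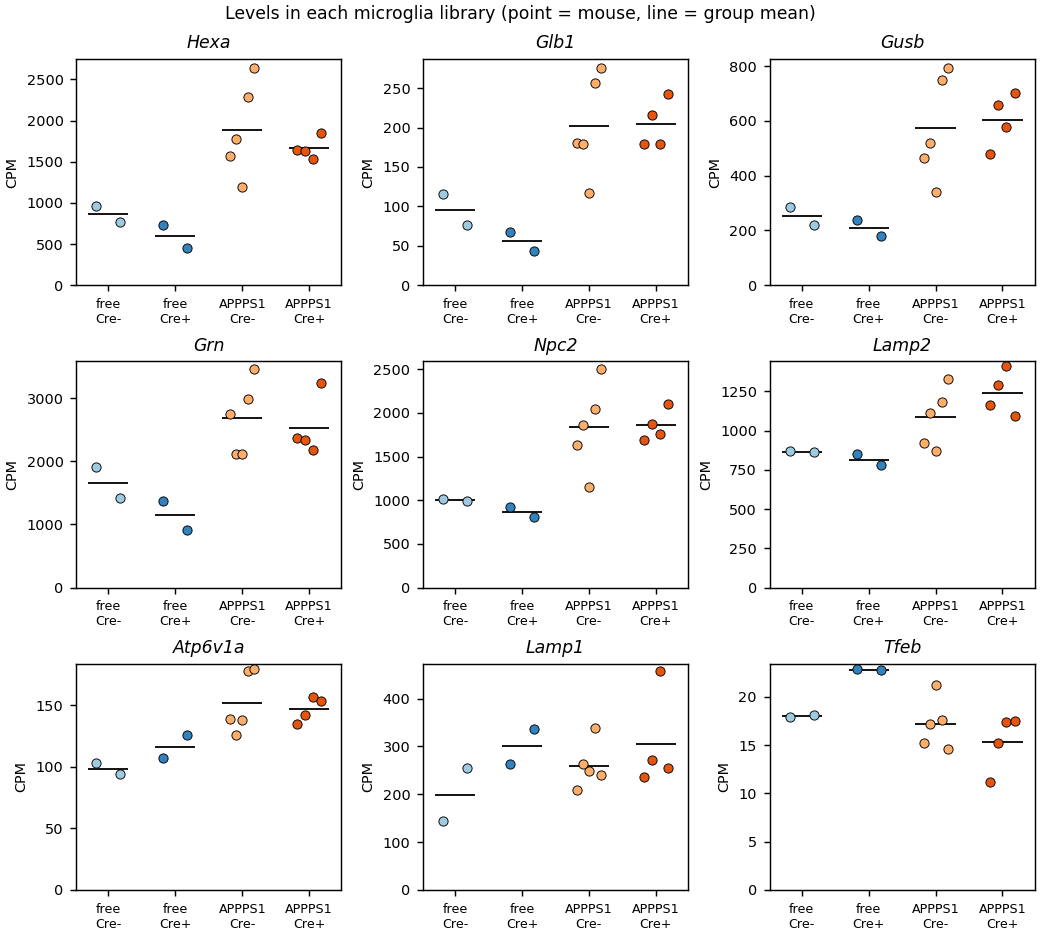
CPM of 9 genes in every microglia library, 1 point per mouse and a line at the group mean, with axes from 0. In the panels of Hexa, Glb1, Gusb, Grn, Npc2, Lamp2 and Atp6v1a all 9 APPPS1 points lie above the 4 amyloid-free points, while those of Lamp1 and Tfeb overlap.

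The mice differed within groups. Among the 9 APPPS1 microglia libraries, that of mouse 779 held the highest value of 16 of the 31 genes and that of mouse 469 the lowest value of 15. Both were Cre-negative. The median coefficient of variation over these 9 libraries was 15.4% across the 31 genes. Among the 13 microglia libraries, that of mouse 26 was lowest for 19 of the 31 genes.

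Levels of other genes moved with the amyloid contrast in microglia. The library of mouse 26 had the low microglia marker sum given above. In the amyloid-free microglia libraries the 15 astrocyte markers summed to 276 to 407 CPM against 133 to 247 CPM in APPPS1 libraries, and the 9 border macrophage markers to 448 to 865 CPM against 237 to 593 CPM. Monocyte and neutrophil markers, 9 in all, summed to 1352 to 6171 CPM against 190 to 4402 CPM. The 18 immediate early and dissociation genes summed to 10209 to 12470 CPM in amyloid-free and 4801 to 15462 CPM in APPPS1 microglia. Group medians were 11164 and 12317 CPM in the amyloid-free groups and 8580 and 9617 CPM in the APPPS1 groups, Cre-negative first. Endothelial markers, 12 in all, reached 173 and 378 CPM in mice 22 and 26 and 37.1 to 104 CPM elsewhere. Neuron markers summed to 13 to 32.3 CPM in amyloid-free and 3.64 to 10.6 CPM in APPPS1 microglia, without overlap. In mouse 26 lymphocyte markers reached 50.4 CPM, pericyte and smooth muscle markers 65.8 CPM and ependymal and choroid plexus markers 303 CPM, each the highest of the 13 microglia libraries. Not all lists were higher without amyloid. Oligodendrocyte precursor markers summed to 1.13 to 3.33 CPM in amyloid-free and 2.05 to 11.8 CPM in APPPS1 microglia. Oligodendrocyte markers summed to 151 to 197 CPM and 115 to 262 CPM. In these lists some markers were at 0 in a whole group of microglia libraries. These were the astrocyte marker Slc6a11 (APPPS1 Cre-positive), the lymphocyte marker Cd3e (both amyloid-free groups) and the ependymal marker Foxj1 (amyloid-free Cre-negative). The precursor markers Olig2 (APPPS1 Cre-positive) and Gpr17 (both Cre-positive groups) were at 0 as well. The part of these cells, and of the dissociation genes, in the results was not tested beyond the covariate given here. Leaving out mouse 26, 759, 465 or 22 leaves an amyloid-free group without a replicate. Fewer of the 31 genes rose without mouse 26, 759 or 465, and more rose without mouse 22. Counts over all genes are not given for these fits, so whether other genes lost calls alike cannot be read from them. Without both amyloid-free Cre-positive mice, both APPPS1 groups were set against the amyloid-free Cre-negative mice alone, so that Cre was not balanced. In that contrast Atp6v0d2 alone of the 31 passed, with 131 genes passing in all. The median log2 change of the 31 genes was 0.47 there and 30 of 31 values were positive. A further fit took the mean log2 level of astrocyte and endothelial markers as a covariate. None of the 31 genes, and no gene at all, passed it with edgeR. In that fit 2 of the 31 and 516 of all genes had an unadjusted p under 0.05, and no other tool was run with it. The astrocyte marker sums did not overlap between amyloid-free and APPPS1 libraries, so this fit cannot tell the covariate from amyloid. With mouse 459 kept as labelled none of the 31 passed with edgeR, and 10 had an unadjusted p under 0.05.

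Split by Cre, the amyloid contrast passed in Cre-positive microglia for 15 of the 31 genes, all higher, against 3.65% of all genes rising and 3.39% falling. Glb1 (2.06 ± 0.37), Hexa (1.67 ± 0.33), Gusb (1.72 ± 0.35) and Ppt1 (1.03 ± 0.21) had the lowest p, followed by Atp6v0d2, Grn (1.33 ± 0.30), Npc2 (1.28 ± 0.29) and Gaa (1.33 ± 0.33). Asah1, named here after its value was seen, rose by 0.71 ± 0.18 (adjusted p = 0.0351) and was the only 1 of the 15 that did not pass in the averaged contrast. This contrast rests on 2 amyloid-free mice. Of the 31 genes, 0 passed without mouse 458, where 31 genes passed in all, and 3 without mouse 475, where 183 did. Without mouse 460 8 passed, without mouse 447 9 and with mouse 459 as labelled 0. Counts over all genes are not given for mice 460, 447 and 459. The median log2 change of the 31 genes was 0.71 with all mice and 0.64, 0.67 and 0.70 without mouse 26, 458 and 475. Without mouse 26 the arm is 1 mouse, whose spread is assumed to be like that of the other groups, so its calls are not given here.

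In Cre-negative microglia none of the 31 genes passed with edgeR, against 0.313% of all genes in either direction. The median log2 change of the 31 genes was 0.45, 30 of the 31 values were positive and 12 had an unadjusted p under 0.05. DESeq2 called 6 genes and limma voom 0. Atp6v0d2 had the lowest adjusted p, at 0.058, followed by Gusb at 1.31 ± 0.33 (adjusted p = 0.128). Without mouse 469, 5 of the 31 genes passed, with 277 of 17561 genes in all, and without mouse 439, 1 did, with 96 of 17568. The difference of the amyloid effect between the Cre states was tested directly. None of the 31 genes passed it, against 0% of all genes, and 2 had an unadjusted p under 0.05. DESeq2 and limma voom called none of them. Asah1, at 0.76 ± 0.25 (adjusted p = 0.52), and Ppt1, at 0.68 ± 0.28 (adjusted p = 0.546), had the lowest p.

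The comparison of Cre states asks how these genes differ where human APOE in astrocytes was lowered, which was partial. In amyloid-free astrocytes the nearest values were 926 CPM in mouse 26, Cre-positive, and 1052 CPM in mouse 759, Cre-negative. In APPPS1 microglia no gene of the 31 passed with edgeR, DESeq2 or limma voom, against 0.00568% of all genes, and none had an unadjusted p under 0.05. The log2 values ran from -0.51 to 0.25, with a median of -0.02. Smpd1 (-0.28 ± 0.15) and Gaa (-0.43 ± 0.24) had the lowest p. The 95% interval was -0.68 to 0.25 for Hexa and -0.52 to 0.49 for Glb1. Changes within these limits remain compatible with the values of the 5 and 4 mice. In amyloid-free microglia no gene of the 31 passed with the same 3 tools either, against 0.0114% of all genes, and 7 had an unadjusted p under 0.05. Gaa (-1.10 ± 0.36, adjusted p = 0.231) and Asah1 (-0.61 ± 0.20, adjusted p = 0.234) had the lowest p, with 2 mice in each group. Without mouse 22, 4 of the 31 genes passed, all lower, with 849 of 18927 genes passing in all. The arm is then mouse 26 alone, whose microglia marker sum is low and whose spread is assumed to be like that of the other groups.

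In astrocytes, 30 of the 31 genes could be tested, and none passed in any contrast with edgeR or limma voom, or with DESeq2, which gave an adjusted p for 29 of them. For amyloid averaged over Cre, 1 of the 30 had an unadjusted p under 0.05, against 0% of all 20052 genes passing. The median log2 change was 0.01. Npc1, the membrane exporter of cholesterol, had the lowest p at -0.24 ± 0.09 (adjusted p = 0.576), followed by Naglu at -0.31 ± 0.15 (adjusted p = 0.735). For no gene of the 30 did all APPPS1 astrocyte libraries lie above or below all amyloid-free ones, against 0.0756% of 14547 genes above and 0.055% below.

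Within astrocytes of Cre-negative mice 0% of all genes and none of the 30 passed for amyloid, with 1 of the 30 at an unadjusted p under 0.05. Smpd1 (0.34 ± 0.13) and Gaa (0.40 ± 0.20) had the lowest p. In Cre-positive astrocytes 0.663% of all genes passed for amyloid, and 2 of the 30 had an unadjusted p under 0.05. These were Atp6v0a1 (-0.47 ± 0.14, adjusted p = 0.171) and Naglu (-0.53 ± 0.22, adjusted p = 0.365). In APPPS1 astrocytes human APOE was lower with Cre but not absent, at 507 to 827 CPM. For Cre in these astrocytes 0.00997% of all genes passed and none of the 30 had an unadjusted p under 0.05. Atp6v1a (-0.25 ± 0.12) and Laptm5 (-1.65 ± 0.85) had the lowest p, and Laptm5 stood at 37.7 CPM in the library of mouse 774 against 1.85 to 3.56 CPM in the other 4 Cre-negative libraries.

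For Cre in amyloid-free astrocytes, 0.204% of all genes passed, and 3 of the 30 had an unadjusted p under 0.05. Atp6ap1 (-0.48 ± 0.17, adjusted p = 0.22) and Atp6v0a1 (0.44 ± 0.17, adjusted p = 0.277) had the lowest p. The difference of the amyloid effect between Cre states passed for 0.155% of all genes in astrocytes, and 4 of the 30 had an unadjusted p under 0.05, with Atp6v0a1 (-0.61 ± 0.20) and Atp6ap1 (0.44 ± 0.20) lowest.

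**Figure D4:**
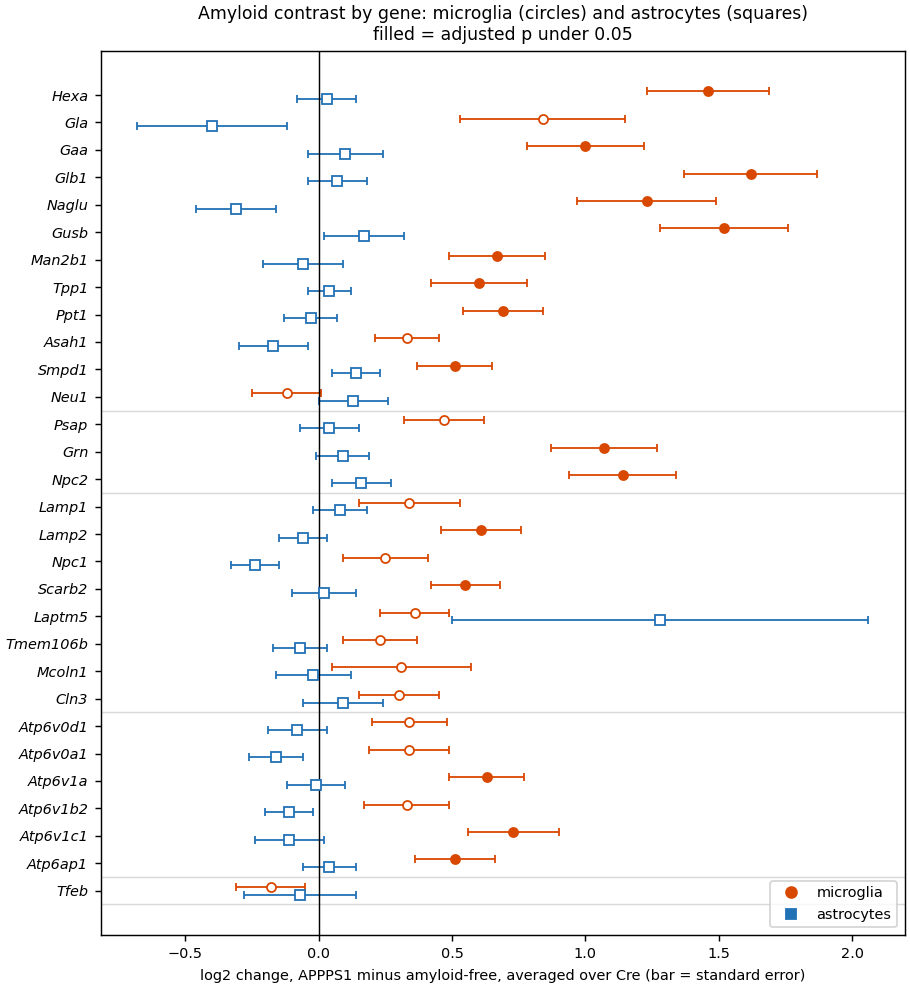
Log2 change with amyloid, averaged over Cre, of 30 genes in microglia (circles) and astrocytes (squares), with standard errors; filled symbols passed at an adjusted p under 0.05. Atp6v0d2 is not drawn. Filled circles run from 0.51 for Smpd1 and Atp6ap1 to 1.62 for Glb1, and no square is filled.

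The amyloid effect was larger in microglia than in astrocytes for 7 of the 31 genes and smaller for none, by a test of the difference over both sorts, against 0.773% of all 21612 genes larger and 0.731% smaller. Of the 31 genes, 23 had an unadjusted p under 0.05. The differences were 1.58 ± 0.29 for Glb1 (adjusted p = 0.00654), 1.45 ± 0.28 for Hexa, 1.57 ± 0.31 for Naglu, 1.37 ± 0.30 for Gusb, 1.01 ± 0.25 for Npc2 and 1.0 ± 0.25 for Grn (adjusted p = 0.0406). Ppt1 was the seventh.

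In astrocytes the ranges of these first 6 genes overlapped with and without amyloid. Glb1 was at 47.5 to 56.9 CPM in 4 amyloid-free and at 45.7 to 67.9 CPM, with a median of 56.2 CPM, in 9 APPPS1 libraries. Hexa was at 105 to 126 CPM and at 98.6 to 153 CPM, with a median of 121 CPM. Gusb was at 29.2 to 45.8 CPM and at 34.6 to 53.3 CPM, with a median of 43.5 CPM. In each of these 3 the APPPS1 and amyloid-free values were mixed. Naglu was at 16.1 to 28.8 CPM and at 13.9 to 23.1 CPM, with a median of 19.6 CPM. Npc2 was at 228 to 302 CPM and at 240 to 328 CPM, with a median of 296 CPM. Grn was at 80.9 to 92.8 CPM and at 82.2 to 107 CPM, with a median of 92.3 CPM, so these 3 overlapped as well.

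With the mouse as a block, since both sorts come from the same animals, 3 of the 31 genes passed (Glb1, Naglu and Hexa). Fewer genes passed in all with the block too, as given below. Without mouse 458 3 of the 31 passed, without mouse 475 or mouse 774 4 did, without mouse 469 11 did, and with mouse 459 as labelled 0 did. Leaving out mouse 26, 759, 465 or 22 leaves an amyloid-free group without a replicate. Fewer of the 31 passed without mouse 26, 759 or 465, and as many without mouse 22. Counts over all genes are not given for the fits with a mouse left out or with mouse 459, so whether other genes lost calls alike cannot be read from them. The markers that moved with the microglial contrast are given above, and their part in this difference was not tested.

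A further 95 genes in 4 lists place these genes in the wider pathway. For amyloid in microglia averaged over Cre, 9 of 30 other hydrolases rose, among them Man2b2, a mannosidase (1.03 ± 0.18), Fuca1, a fucosidase (0.93 ± 0.18), and Arsb, a sulfatase (0.86 ± 0.18). Of 14 other pump subunits tested 2 rose, Atp6v0c (0.86 ± 0.18) and Atp6v1f (0.54 ± 0.15). Of 24 other membrane proteins tested 8 rose, with the tetraspanin Cd63 at 1.74 ± 0.26 and the macrophage glycoprotein Cd68 at 1.37 ± 0.23. Of 25 regulators and enzyme-sorting genes 6 rose and 1 fell. Rragd, a GTPase that links lysosomes to mTORC1, rose by 3.42 ± 0.46 from 0.0939 to 0.842 CPM in amyloid-free to 1.60 to 6.59 CPM in APPPS1 microglia. Igf2r, the mannose 6-phosphate receptor that sorts hydrolases, fell by 1.84 on the log2 scale (standard error 0.45), with 17.9 CPM in 1 amyloid-free Cre-positive library, 1.13 to 2.33 CPM in the other 3 amyloid-free libraries and at most 2.06 CPM in APPPS1 microglia.

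In Cre-negative microglia only Rragd of the 95 genes passed (4.14 ± 0.67). In Cre-positive microglia 8 of 30, 1 of 14 and 5 of 24 rose in the first 3 lists, and 4 of 25 regulators rose while Igf2r fell. Cd63 (1.61 ± 0.31), Rragd (3.52 ± 0.52) and Gnptg, a subunit of the enzyme that tags hydrolases for sorting (0.84 ± 0.17), passed the test of the difference between the sorts. Between the sorts 19 of 30 other hydrolases were higher in microglia and 6 lower, 9 and 5 of 15 other pump subunits, 13 and 7 of 25 other membrane proteins and 14 and 7 of 25 regulators, against 35.4% and 41.1% of all genes. No gene of these lists passed in the astrocyte contrasts.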

How the data were processed

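RNA was measured in CD11b-sorted microglia and ACSA-2-sorted astrocytes of 14 mice (28 libraries). Per the labels' protocols, total RNA was made into SMARTer libraries, and per the submitters' processing notes reads were processed with bcl2fastq, STAR and featureCounts of Subread on GRCm38 and GRCh38. The annotation release and the strand setting are not given in the sources used here. The authors deposited 1 table of raw counts per gene, mouse and human rows together, with 95966 rows. In it 258 gene IDs stood on several rows with identical counts and were kept once. Human rows held 0.042% to 0.237% of the counts of a library. No replicate pair of the 36 compared was close enough to be 1 library counted again, with chi-square per degree of freedom at least 39.5.

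CPM used the sum of mouse gene counts, and TPM used the exon length of 40254 mouse genes (GENCODE M21). Because the sort comparisons are scaled by TMM, their fold changes differ from ratios of CPM, and small ones can differ in direction. Tests used edgeR 4.0.16 in R 4.3.3 (filterByExpr, TMM, quasi-likelihood F test, all 4 groups of a sort in 1 model, Benjamini-Hochberg over all genes, threshold 0.05), and the standard error is the log2 change over the root of F. The code was tested on simulated data. Alternatives were DESeq2 1.42.0, limma 3.58.1 voom, DESeq2 size factors, no filter on low counts, only the compared groups, a marker covariate, mouse 459 as labelled, no amyloid-free Cre-positive mice, each mouse left out, and the mouse as a replicate block. Both sorts of a mouse are paired by animal. The correlation of their deviations from the group means ran from -0.106 to 0.265 over 11507 genes. Intervals on counts cover counting error only.

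The 31 genes, the lists and the alternatives were chosen with earlier results of these data known. Named genes were those passing, up to 3 per role by lowest p for amyloid in microglia, up to 6 passing the difference between sorts, otherwise up to 8 passing or the 2 of lowest p, up to 4 per further list, and Tfeb always. Each mouse is 1 replicate. Sex was not given. Some genes of the further lists that the rule would name are not reported here.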

Additional observations from a re-analysis of the deposited data

Results flagged for a closer look

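Of 124 combinations of gene and group with 4 or 5 libraries, 7 had 1 library set apart relative to the spread of its group, and chance gives about 1 in 20. In APPPS1 Cre-positive microglia, Lamp1 was at 457 CPM in mouse 460, against 236 to 271 CPM in the others of the group. Tmem106b was at 59.7 CPM in the same mouse, against 41.2 to 43.4 CPM. Atp6v0d2 was at 5.70 CPM in mouse 475, against 4.32 to 4.36 CPM, a small step. In APPPS1 Cre-negative astrocytes, Lamp2 was at 524 CPM in mouse 447 (others 452 to 465 CPM) and Laptm5 at 37.7 CPM in mouse 774 (others 1.85 to 3.56 CPM). Atp6v0d2 was at 0.0241 CPM in the astrocyte library of mouse 774 and at 0.0461 CPM in that of mouse 475, with no count in the other libraries of each group. These libraries together held 3 counts of the gene.

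The amyloid effect differed between the sorts, by the test of the difference itself, for Glb1 (1.58), Hexa (1.45), Naglu (1.57), Gusb (1.37), Npc2 (1.01), Grn (1.0) and Ppt1 (0.75), as log2 values in microglia minus astrocytes. With the mouse as a block only Glb1, Naglu and Hexa passed. The human rows of the 31 symbols, which no comparison used, held 550 counts over the 26 libraries.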

How the results depend on the processing

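Counts of the 31 genes passing are given first. For amyloid in microglia averaged over Cre (17), the count was 0 with mouse 459 as labelled, 0 with the marker covariate and 1 without mice 22 and 26, and 6 to 20 with 1 mouse left out. In Cre-negative microglia (0) it was 6 with DESeq2, 4 without the filter and 0 to 5 with 1 mouse left out. In Cre-positive microglia (15) it was 0 with mouse 459 and 0 to 17 with 1 mouse left out. For Cre in amyloid-free microglia (0) it was 0 to 4 with 1 mouse left out. For the difference between sorts (7) it was 0 with mouse 459, 12 with DESeq2, 4 with voom, 3 with the replicate block and 0 to 11 with 1 mouse left out. For microglia against astrocytes it was 27 to 30 in all settings. It was 0 in all settings for the astrocyte contrasts, for Cre in APPPS1 microglia and for the difference between Cre states in microglia. With DESeq2 size factors Atp6v0d1 was lower in microglia, which gave 24 genes higher and 6 lower, and the median of all genes moved from -0.18 to -0.30. The replicate block applies to the comparisons between sorts, and changed no other call count by over 1.5 times.

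Among the genes recomputed one by one, directions turned for 6. Small values that did not pass also turned elsewhere: for Cre in APPPS1 microglia 13 of 31 values were positive, 24 without mouse 779 and 7 with mouse 459, and for amyloid averaged over Cre in astrocytes 15 of 30, 23 with mouse 459. For amyloid in microglia, Neu1 ranged from -0.21 to 0.08 with 1 mouse left out, at 0.08 without mouse 26, 0.01 without mouse 465 and 0.07 without mice 22 and 26. With the marker covariate Npc1 was at -0.01, Cln3 at -0.04, Gla at -0.43 and Smpd1 at -0.04. The difference between sorts for Grn was -0.68 with mouse 459 as labelled. The cause was not tested.

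Counts over all genes also moved. Averaged over Cre in microglia 1685 genes passed, 2722 with DESeq2, 19 with mouse 459, 131 without mice 22 and 26 and 0 with the covariate. In Cre-negative microglia 55 passed, 454 with DESeq2, 265 without the filter and 3 with voom. In Cre-positive microglia 1240 passed and 2423 with DESeq2. For Cre in amyloid-free microglia 2 passed, 347 with DESeq2 and 146 without the filter. For the difference between sorts 325 passed, 1164 with DESeq2, 169 with voom and 80 with the replicate block. In astrocytes DESeq2 called 254 genes for amyloid averaged over Cre (0 with edgeR), 850 in Cre-positive mice (133), 875 for Cre without amyloid (41) and 577 for the difference between Cre states (31). Groups of 2 amyloid-free mice limit the contrasts that use them.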

Other observations

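Mouse 459, left out of all comparisons, had 138 CPM of Hexa and 259 CPM of Smpd1 in its library labelled microglia, and 1662 CPM of Hexa and 42.8 CPM of Smpd1 in its library labelled astrocyte.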
